A study of Mus musculus with 24 samples.

Results

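Donor CD8+ and CD4+ T cells carrying the Cat-Tg transgene were compared on day 7 after allogeneic transplantation, in 3 CD8 and 3 CD4 libraries out of 24 in the series. The 6 libraries were chosen by their labels for genotype, sorted cell and time, and a CD8 and a CD4 library with the same replicate number were treated as cells of the same recipient. Cat-Tg mice carry a human β-catenin that lacks its N-terminal part, cloned in the p1017 vector and kept heterozygous on a C57BL/6 background, and which of the founder lines gave these cells is not given in the sources used here. Equal numbers of purified Cat-Tg CD8+ and CD4+ cells were given with T cell-depleted bone marrow from wild-type (WT) mice to lethally irradiated BALB/c recipients, and on day 7 (post-tx) donor cells were sorted from the spleen by H-2Kb, an MHC class I antigen of C57BL/6 cells that cells derived from the WT marrow carry as well. The other groups used here were WT CD8 and CD4 cells from recipients treated in the same way (3 libraries each), and Cat-Tg CD8 and CD4 cells sorted from fresh spleens of donor mice that were not transplanted (pre-tx, 3 libraries each). Adult mice were used, matched for age and sex. Each library was made from total RNA of sorted cells (bulk RNA-seq), so that fewer cells of a type and less RNA per cell cannot be told apart.

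CD8+ T cells recognise peptides on MHC class I and kill through granules that hold perforin and granzymes, whereas CD4+ T cells recognise peptides on MHC class II and act largely through cytokines and surface ligands such as CD40 ligand. The split between the lineages is kept by opposing transcription factors, Runx3 on the CD8 side and ThPOK (encoded by Zbtb7b) on the CD4 side. β-catenin is the transcriptional partner of TCF-1 and LEF-1 at the end of the Wnt pathway. The spleen after irradiation and marrow grafting also holds macrophages of the red pulp, which take up dying red cells and recycle their iron, and newly forming erythroid cells, and transcripts of both can enter a sorted sample. Gene lists for the T lineages and for the other cells of the spleen are therefore described side by side.

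The Cat-Tg post-tx CD8 libraries held 38167840, 36882033 and 38523990 estimated counts (replicates 1 to 3) and the CD4 libraries 11135713, 50519825 and 46196685. CD4 replicate 1 was thus the shallowest of the 6 and it also held the most erythroid RNA (below). Levels are given as CPM (counts scaled to libraries of equal size) after TMM scaling, and in these libraries 3 counts, the limit that a count of 0 allows, corresponded to between 0.0522 and 0.251 CPM on this scale. Fold changes are log2 values of CD8 over CD4, so that a positive value is a higher level in CD8 cells. A gene was called different at an adjusted p of at most 0.05 and a log2 fold change of at least 1 in either direction, in edgeR's quasi-likelihood test with the recipient as a block.

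Far more genes were called higher in the CD4 libraries than in the CD8 libraries. Of 14354 genes tested, 581 were called (4.05%), of which 57 were higher in CD8 cells (0.397%) and 524 higher in CD4 cells (3.65%). The shares of 0.397% and 3.65% are the background for the counts of list members called below. The called differences were large, with a median size of 4.47 on the log2 scale, while the median log2 fold change over all genes tested was -0.02. In all, 2131 genes had an unadjusted p under 0.05. In simulated data this fit recovered 21.9% of genes with a true log2 fold change of 2 and 78.8% of those with 4. A gene that was not called may therefore still differ. The number of calls depended on the libraries in the fit. It was 232, 240 and 176 without Cat-Tg replicate 1, 2 or 3, it was 978 and 939 without WT replicate 1 or 2, and it was 932 without the recipient block. In a fit of the 6 Cat-Tg libraries alone, 303 genes were called higher in CD8 cells (2.48% of 12213 tested) and 930 higher in CD4 cells (7.61%), and 574 of the 581 genes were called there too. The share of calls on the CD8 side was 9.81% in the fit of 12 libraries, 24.6% in that of the 6 libraries and 26.8% without WT replicate 1.

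**Figure D1:**
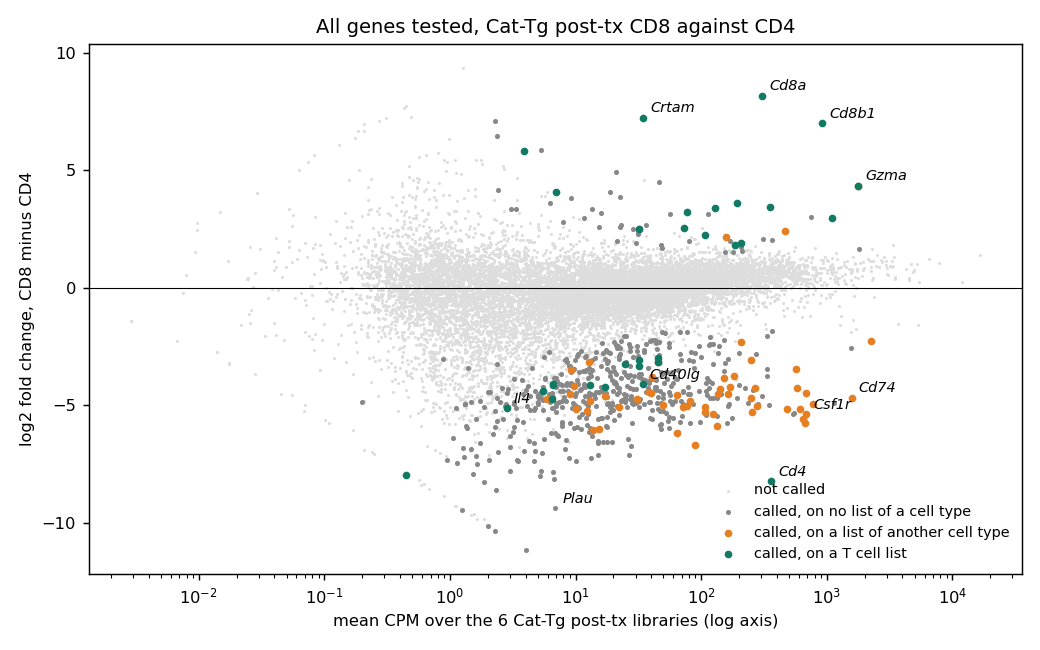
Each point is 1 of the 14354 genes tested, with its mean CPM over the 6 Cat-Tg post-tx libraries on a log axis (x) and its log2 fold change, CD8 minus CD4 (y). Pale grey points were not called, and called genes are dark grey (on no list of a cell type), green (on a T cell list) or orange (on a list of another cell type), with 57 above 0 and 524 below.

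The sorted subsets carried their own lineage genes with little of the other's. Cd8a, which encodes the CD8 alpha chain, was at 547, 603 and 661 CPM in the CD8 libraries and at 3.27, 2.07 and 1.31 CPM in the CD4 libraries (log2 fold change 8.19, SE 0.732, adjusted p = 0.000736, edgeR). Cd8b1, the beta chain, was at 1700, 1850 and 1900 CPM against 19.5, 15.5 and 9.02 CPM. Cd4 went the other way, at 0.894, 4.22 and 3.28 CPM in the CD8 libraries and 655, 707 and 786 CPM in the CD4 libraries (log2 fold change -8.23, SE 0.721, adjusted p = 0.000736, edgeR). For these 3 genes the libraries of the subsets did not overlap, and the calls held with each of the 3 recipients left out in turn. Zbtb7b, by contrast, was at 12.8, 20.4 and 17.5 CPM in CD8 cells and 89.9, 35 and 40.3 CPM in CD4 cells, so that every CD4 library lay above every CD8 library, with the highest value in the shallow CD4 replicate 1. Its log2 fold change of -1.58 (SE 0.647) did not pass the test (adjusted p = 0.274, edgeR).

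Among the other CD8 lineage genes, Crtam, which encodes an adhesion receptor of activated cytotoxic cells, was at 72.3, 71.9 and 59.3 CPM in CD8 cells and at 0.419, 1.90 and 0.0604 CPM in CD4 cells, with the lowest of these within the limit of a count of 0. Eomes, a T-box factor of cytotoxic and memory CD8+ cells, was at 39.8, 61.7 and 62.0 CPM in CD8 cells and 6.03, 12.6 and 11.1 CPM in CD4 cells (log2 fold change 2.50, SE 0.469, adjusted p = 0.0106, edgeR). In all, 4 of the 7 members of the CD8 lineage list were called higher in CD8 cells, and the list's median log2 fold change was 2.50. The call of Eomes was lost without any 1 of the 3 recipients (adjusted p = 0.0839, 0.106 and 0.101, edgeR), while that of Crtam was not. Runx3 was at a log2 fold change of 0.63 and Itgae, an integrin chain of tissue-resident CD8+ cells, at -1.51, and neither passed the test.

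Of the 7 CD4 lineage genes, 2 were called higher in CD4 cells and the other 5 also had negative log2 fold changes. Cd40lg, the ligand through which helper T cells signal to B cells and macrophages, was at 2.54, 6.83 and 2.08 CPM in CD8 cells and at 28.1, 83.0 and 82.2 CPM in CD4 cells (log2 fold change -4.10, SE 0.741, adjusted p = 0.00902, edgeR). Its adjusted p was 0.051 without replicate 1 and 0.108 without replicate 3. Gata3, a factor of CD4+ and type 2 helper cells, was at -1.52 and Tnfrsf4, the costimulatory receptor OX40, at -2.03, and both passed when the 6 Cat-Tg libraries were fitted alone but not in the fit of 12.

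**Figure D2:**
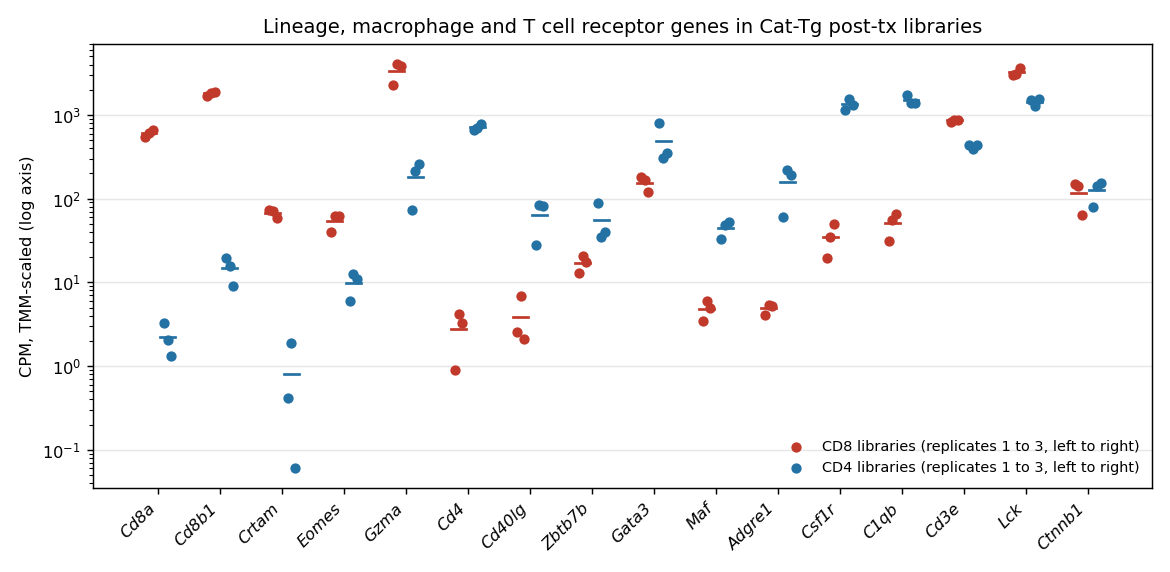
CPM (log axis) of lineage, macrophage and T cell receptor genes in the 3 CD8 (red) and 3 CD4 (blue) libraries, replicates 1 to 3 from left to right, with a bar at each group's mean. Cd8a, Cd8b1, Cd4 and the macrophage genes Adgre1, Csf1r and C1qb separate the subsets by more than 1 order of the axis, whereas the points of Ctnnb1 overlap.

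T cell receptor and proximal signaling genes, which both subsets use, had lower values in the CD4 libraries without any member being called in the fit of 12 libraries. Cd3e, a chain of the receptor complex, was at 832, 866 and 881 CPM in CD8 cells and 439, 390 and 443 CPM in CD4 cells. The kinase gene Lck was at 2960, 3060 and 3630 CPM in CD8 cells and 1520, 1270 and 1550 CPM in CD4 cells. For both genes each CD8 library lay above each CD4 library, but neither difference passed the test (log2 fold changes 1.02 and 1.15, adjusted p = 0.388 and 0.288, edgeR). Of the list's 20 members, 16 had positive log2 fold changes, the median over the list was 0.88, and 7 had an unadjusted p under 0.05. DESeq2 called 3 and limma-voom 2. Over all 14354 genes tested, 2131 had such a p, and DESeq2 called 1552 and limma-voom 932. In edgeR, the fit of the 6 libraries alone called 4 members higher in CD8 cells and 1 higher in CD4 cells. The fit without the block called 2, beside 932 of all genes. Summed over the list, the CD8 libraries were at 14400, 14400 and 15400 CPM and the CD4 libraries at 8940, 7470 and 8740 CPM. When libraries were scaled to equal sums of this list, the median log2 fold change over all genes moved to -0.84, and 25 genes were called higher in CD8 cells and 1072 higher in CD4 cells.

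Genes of the Wnt and β-catenin list leaned toward the CD4 libraries with few calls. Of 19 tested, 15 had negative log2 fold changes (median -0.86), and for 10 every CD4 library lay above every CD8 library, as for 15.9% of all genes tested. The mouse gene Ctnnb1 was at 148, 142 and 63.1 CPM in CD8 cells and 79.8, 141 and 155 CPM in CD4 cells, so the ranges overlapped (log2 fold change -0.12, SE 0.66, adjusted p = 0.959, edgeR), and the direction changed to 0.44 without replicate 3. RNA of the human transgene was not analysed here. Ccnd1, which encodes cyclin D1, was the only member called, at 1.31, 0.546 and 0.352 CPM in CD8 cells and 21.4, 8.62 and 7.27 CPM in CD4 cells, and its call was lost without any 1 recipient (adjusted p between 0.0846 and 0.117, edgeR). Tcf7, the gene of TCF-1, had a log2 fold change of -0.97, and the feedback inhibitor Axin2 of -1.23, and neither passed the test. Ccnd1 is also expressed by macrophages.

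Several genes of the cytotoxic granule were higher in the CD8 libraries. Gzma was at 2250, 4040 and 3830 CPM in CD8 cells and at 72.2, 212 and 262 CPM in CD4 cells (log2 fold change 4.36, SE 0.777, adjusted p = 0.00842, edgeR). Gzmb was at 1310, 2530 and 1900 CPM in CD8 cells and at 109, 367 and 322 CPM in CD4 cells (log2 fold change 2.98, SE 0.488, adjusted p = 0.0053, edgeR). Both encode granule proteases that are delivered into target cells, and for both the lowest CD8 library lay several-fold above the highest CD4 library. Prf1, the pore-forming protein that lets granzymes in, was at 544, 641 and 749 CPM against 44.5, 82.0 and 55.1 CPM (log2 fold change 3.45). Gzmk was at 249, 397 and 412 CPM against 14.7, 33.5 and 43.0 CPM (log2 fold change 3.63), and its call held without each recipient in turn.

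In the cytotoxic granule list as a whole, 14 of 18 members could be tested, 6 of them were called higher in CD8 cells (Gzma, Gzmb, Gzmk, Gzmm, Prf1 and Cst7) and none was called higher in CD4 cells, with a median log2 fold change of 1.87. The 4 members not tested, Gzmd, Gzme, Gzmg and Gzmn, were at or under 0.728 CPM in each of the 6 libraries. Nkg7 and Ctsw, which encode further granule proteins, were at 1.83 and 1.69 (adjusted p = 0.0666 and 0.0943, edgeR), and in CD4 cells Nkg7 still reached 1410, 1440 and 1610 CPM. Gzma, Gzmb, Gzmm, Prf1 and Cst7 lost their calls without replicate 3 (adjusted p between 0.0592 and 0.181 over the fits in which 1 of them lost its call, edgeR), as did Gzma, Gzmb and Cst7 without replicate 1 and Cst7 without replicate 2.

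The promoters of Gzma and Gzmb are shown because granzyme genes carried the difference and because Runx3 binds the letters TGTGGT. They are RefSeq sequences on GRCm38.p6, from 250 bases before to 50 bases after the start of the gene, written 5′ to 3′ in the direction of transcription, with each match on either strand in capitals: Gzma at chr13:113100932-113101231 and Gzmb at chr14:56262285-56262584, both on the minus strand. The match in Gzma begins 50 bases before the start, and those in Gzmb begin 93 and 34 bases before it.
Gzma: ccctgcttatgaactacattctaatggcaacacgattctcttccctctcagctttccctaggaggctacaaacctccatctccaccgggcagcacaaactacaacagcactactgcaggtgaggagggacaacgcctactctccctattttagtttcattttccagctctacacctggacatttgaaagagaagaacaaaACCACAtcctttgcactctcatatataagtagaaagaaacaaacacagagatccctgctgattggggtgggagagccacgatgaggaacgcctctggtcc
Gzmb: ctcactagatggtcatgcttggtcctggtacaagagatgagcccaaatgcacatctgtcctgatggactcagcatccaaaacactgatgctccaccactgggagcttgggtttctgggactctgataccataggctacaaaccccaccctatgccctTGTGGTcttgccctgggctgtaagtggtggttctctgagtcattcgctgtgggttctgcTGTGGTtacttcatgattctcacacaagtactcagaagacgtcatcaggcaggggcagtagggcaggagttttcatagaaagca
All 6 called cytotoxic genes had an entry in the table of promoters, 7 promoters in all, and 5 of these (71.4%) held TGTGGT, against 16.8% of 32851 mouse promoters of the same length. The letters were picked from several known motifs after their matches had been seen, so the share describes these promoters and is no test.

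Receptors that CD8+ T cells share with NK cells followed in part. Of 21 members, 17 were tested and 3 were called higher in CD8 cells, with a median log2 fold change of 2.09, and in the fit of the 6 libraries alone 10 were called higher in CD8 cells and 1 higher in CD4 cells. Cd160, a receptor for the herpesvirus entry mediator, was at 275, 220 and 210 CPM in CD8 cells and 13.7, 26.7 and 28.5 CPM in CD4 cells (log2 fold change 3.41, SE 0.497, adjusted p = 0.00266, edgeR). Klra7, an NK inhibitory receptor gene, was called beside Crtam, at 5.84, 11.9 and 4.57 CPM against 0.0838, 0.749 and 0 CPM, and its call was lost without any 1 recipient (adjusted p between 0.0501 and 0.16, edgeR). Klra genes are near-identical copies, so that counts of Klra7 may include reads of its neighbours. Klrd1 and Klrc1, the chains of the CD94/NKG2A receptor, were at 2.09 and 2.55 and did not pass the test.

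Costimulatory and homing receptors differed in both directions. Tnfrsf9, the costimulatory receptor 4-1BB, was at 169, 160 and 196 CPM in CD8 cells and 41.8, 28.2 and 42.7 CPM in CD4 cells (log2 fold change 2.24, SE 0.388, adjusted p = 0.00663, edgeR), and Cd27, a receptor that sustains T cell survival, was at 1.82 (adjusted p = 0.0272). Both calls were lost without any 1 recipient (adjusted p between 0.052 and 0.278, edgeR). With Cd160, 3 of 19 checkpoint and costimulatory genes were called higher in CD8 cells. Pdcd1, the gene of PD-1, was at 701, 769 and 980 CPM in CD8 cells and 232, 284 and 295 CPM in CD4 cells, without overlap, but it fell short of the threshold (log2 fold change 1.59, adjusted p = 0.0587, edgeR). Lag3 was at 1.75 with an adjusted p of 0.158. The list's median was -0.17, and it was 0.35 without replicate 3.

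In the homing list of 24 genes, Cx3cr1, the fractalkine receptor of cytotoxic effector cells, was at 141, 130 and 101 CPM in CD8 cells and 13.5, 21.3 and 30.7 CPM in CD4 cells (log2 fold change 2.57, adjusted p = 0.0199, edgeR). S1pr5, a receptor for egress into blood, was the other gene called higher in CD8 cells, at 4.08. Called higher in CD4 cells were Ccr4 (-4.40), Ccr7 (-3.07), which guides cells to lymph nodes, and Ccr9 (-3.15), a receptor for the gut chemokine CCL25 that plasmacytoid dendritic cells use too. Ccr7 was at 7.71, 3.73 and 10.2 CPM in CD8 cells and 48.3, 54.6 and 66.7 CPM in CD4 cells. Without replicate 1 or 3 none of the 5 passed in edgeR, and without replicate 2 only Ccr4 did. The list's median moved from 0.14 to -0.76 without replicate 1.

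T cell genes called higher in CD4 cells included genes that macrophages express as well. Maf, a factor of helper T cells and of tissue macrophages, was at 3.41, 6.01 and 4.89 CPM in CD8 cells and 33.2, 48.3 and 52.3 CPM in CD4 cells (log2 fold change -3.24, adjusted p = 0.00576, edgeR). Il6ra was at 1.51, 1.67 and 2.05 CPM against 22.2, 37.8 and 38.5 CPM (log2 fold change -4.20), and Ifngr2 at 1.03, 1.06 and 2.29 CPM against 17.4, 27.6 and 28.9 CPM (log2 fold change -4.14). These encode receptor chains for interleukin 6 and for interferon gamma, which myeloid cells carry as well. Of the 19 receptors on that list, only these 2 were called. The calls of Maf and Ifngr2 were lost without any 1 recipient (adjusted p between 0.0506 and 0.0807, edgeR).

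Regulatory T cell genes were called on both sides. Ikzf4 (-4.13), Lrrc32 (-4.72), Izumo1r (-3.31) and Socs2 (-2.99) were higher in CD4 cells, whereas Gzmb and Tnfrsf9, which the list shares with others, were higher in CD8 cells. Izumo1r, the folate receptor 4 of regulatory and anergic CD4+ cells, was at 3.49, 5.31 and 7.88 CPM in CD8 cells and 93.5, 33.9 and 48.2 CPM in CD4 cells. Foxp3, the defining factor of regulatory T cells, was at 24.4, 24.6 and 43.7 CPM in CD8 cells and 69.9, 41.3 and 40.7 CPM in CD4 cells, and the groups overlapped (log2 fold change -0.72, SE 0.746, adjusted p = 0.75, edgeR). Il2ra, the high-affinity interleukin 2 receptor chain, was at 54.2, 33.2 and 32.1 CPM against 39.8, 80.1 and 79.8 CPM and did not pass the test either. Without replicate 1 only Socs2 kept its call among the 17 tested members, without replicate 2 only Gzmb, and without replicate 3 none.

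Among 26 cytokine genes, 20 were tested and 3 were called higher in CD4 cells, Cd40lg among them. Il4, the cytokine of type 2 helper cells, was at 0.307, 0.0607 and 0.147 CPM in CD8 cells and 5.36, 3.39 and 7.75 CPM in CD4 cells (log2 fold change -5.12, SE 0.974, adjusted p = 0.0118, edgeR). Il2 had no count in any CD8 library and was at 0.503, 1.27 and 0.926 CPM in CD4 cells, at most 73 counts, a level at least 9.88-fold higher than 3 counts per CD8 library allow (adjusted p = 0.0392, edgeR). Tnf and Il21 were at -3.11 and -5.48 and did not pass the test, and Ifng, at 23.3, 23.5 and 14.9 CPM in CD8 cells and 15.9, 20.7 and 26.4 CPM in CD4 cells, had overlapping ranges. The calls of Il4 and Il2 were lost without any 1 recipient (adjusted p between 0.0573 and 0.138, edgeR).

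Macrophage genes made the largest and most uniform group on the CD4 side. Adgre1, which encodes the F4/80 antigen of macrophages, was at 4.05, 5.37 and 5.22 CPM in the CD8 libraries and at 60.4, 221 and 192 CPM in the CD4 libraries (log2 fold change -4.83, SE 0.749, adjusted p = 0.00384, edgeR). Csf1r, the receptor for macrophage colony-stimulating factor, was at 19.7, 34.6 and 49.1 CPM against 1140, 1550 and 1330 CPM (log2 fold change -5.37, SE 0.549, adjusted p = 0.000867, edgeR). C1qb, a chain of complement C1q, was at 31.4, 55.6 and 65 CPM against 1750, 1370 and 1380 CPM (log2 fold change -4.94). In each of these the lowest CD4 library stood more than 10-fold above the highest CD8 library. Adgre1 lost its call without replicate 3 (adjusted p = 0.0775, edgeR), while Csf1r and C1qb did not.

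The red pulp and tissue macrophage list had 28 members, of which 27 were tested and 26 were called higher in CD4 cells (beside 3.65% of all genes), with a median log2 fold change of -5.08 beside -0.02 over all genes tested. The iron exporter Slc40a1 (-5.76), the hemoglobin scavenger receptor Cd163 (-6.68), Vcam1 (-5.58), the heme-degrading enzyme Hmox1 (-4.28) and Spic (-4.50), a transcription factor of red pulp macrophages, were among them. Slc40a1 was at 25.7, 28.6 and 13.7 CPM in CD8 cells and 536, 1800 and 1630 CPM in CD4 cells. Lyz2, shared by macrophages and neutrophils, had the smallest difference, at -1.44, and was not called. Vsig4 was not tested, with at most 1.87 CPM in a library. Without replicate 1, 2 or 3 the number called was 22, 24 and 18.

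C1qb and Fcgr1 promoters are shown because these genes are read as macrophage markers here and because the ETS-family factor PU.1, which macrophages need, binds the letters AGGAAGT. Fcgr1, the high-affinity IgG receptor, was at 1.06, 1.09 and 1.52 CPM in CD8 cells and 27.7, 58.0 and 43.2 CPM in CD4 cells. The sequences are from RefSeq on GRCm38.p6 in the same window and writing, C1qb at chr4:136886151-136886450 and Fcgr1 at chr3:96293920-96294219, both on the minus strand, with the match in capitals, 53 and 61 bases before the start.
C1qb: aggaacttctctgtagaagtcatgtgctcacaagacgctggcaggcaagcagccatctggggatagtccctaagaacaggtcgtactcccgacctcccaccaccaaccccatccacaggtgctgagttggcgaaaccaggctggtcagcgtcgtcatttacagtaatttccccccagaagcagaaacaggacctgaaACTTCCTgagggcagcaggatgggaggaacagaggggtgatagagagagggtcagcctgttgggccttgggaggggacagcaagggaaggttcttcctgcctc
Fcgr1: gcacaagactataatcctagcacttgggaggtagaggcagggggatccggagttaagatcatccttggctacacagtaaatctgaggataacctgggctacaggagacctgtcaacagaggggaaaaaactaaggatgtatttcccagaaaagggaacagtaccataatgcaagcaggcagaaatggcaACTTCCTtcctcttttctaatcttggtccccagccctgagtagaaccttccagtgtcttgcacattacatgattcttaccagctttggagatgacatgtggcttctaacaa
Of the 26 called macrophage genes, 15 had an entry in the table (16 promoters), and 5 of these promoters (31.2%) held AGGAAGT, against 9.35% of all promoters. The same letters were in 2 of the 7 promoters of the called cytotoxic genes (28.6%), which were higher in CD8 cells. They were in 0 of the 4 promoters of the called MHC class II genes. The share above that of all promoters was thus not particular to the macrophage genes. As above, the letters were picked after their matches had been seen.

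Summed over the 28 genes, the CD4 libraries held 13500, 19700 and 17500 CPM of macrophage transcripts, between 1.45% and 2.24% of all counts, and the CD8 libraries 1050, 1380 and 1450 CPM. The Cat-Tg CD4 libraries before transplant held 4940, 3250 and 4260 CPM and the WT CD4 libraries on day 7 held 3090, 3740 and 4740 CPM. As shares of the deposited counts these were between 0.352% and 0.601%, below each of the Cat-Tg post-tx CD4 libraries. The sums before transplant were scaled over the Cat-Tg libraries and the others over the libraries of day 7. The ratio of the group means, CD4 over CD8, was 13.1, and it was 15.9 on shares of the deposited counts and 17.3 on deposited TPM.

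Genes of antigen presentation on MHC class II were also higher in the CD4 libraries. Of 12 tested members, 7 were called higher in CD4 cells and the median log2 fold change was -4.32. Cd74, the invariant chain, was at 88.7, 139 and 133 CPM in CD8 cells and 3360, 2930 and 2790 CPM in CD4 cells (log2 fold change -4.67, SE 0.554, adjusted p = 0.00125, edgeR). Ciita, the regulator that switches these genes on, was at 0.894, 0.364 and 0.733 CPM against 21.4, 27.4 and 23.8 CPM. The classical chains H2-Aa, H2-Ab1 and H2-Eb1 lay between -4.21 and -4.69. Mouse T cells make little MHC class II, whereas macrophages, dendritic cells and B cells make it. Summed, the list was at 6440, 5430 and 5020 CPM in CD4 cells and 238, 353 and 360 CPM in CD8 cells.

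Erythroid genes had negative log2 fold changes throughout, but unevenly between libraries. Hba-a1, an alpha globin, was at 455, 562 and 638 CPM in CD8 cells and at 6360, 1540 and 663 CPM in CD4 cells (log2 fold change -1.73, SE 0.817, adjusted p = 0.36, edgeR). The 3 CD4 libraries were each above the CD8 libraries, but the first was high and the third lay just above the highest of them. All 30 tested members had negative log2 fold changes, with a median of -2.42, and 3 were called, the blood group gene Kel (-4.73), Rhag (-4.16) and Ermap (-3.17). Summed, the list was at 24300, 10700 and 4670 CPM in the CD4 libraries and 2690, 3840 and 4280 CPM in the CD8 libraries. Globin RNA is abundant in reticulocytes, and Cat-Tg CD8 libraries before transplant reached 12200 CPM. Without replicate 1 only Rhag was called and without replicate 2 or 3 none, while in the fit of the 6 libraries alone 14 were. Hba-a1 and Hba-a2 are near-identical copies, so reads may be divided between them.

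Most of the B and plasma cell genes called higher in CD4 cells encode antibody chains. Ighg1 was at 20.9, 5.04 and 10.5 CPM in CD8 cells and 319, 77.1 and 553 CPM in CD4 cells (log2 fold change -4.52, adjusted p = 0.00327, edgeR), and Ighg2b, Ighg2c, Jchain and Mzb1 were called higher in CD4 cells as well, 5 of 10 tested plasma cell genes. Without replicate 1, 2 or 3 the number was 2, 3 and 0. Of 14 tested B cell genes, Igkc (-3.44) and Bank1 (-4.60) were called. The B cell marker Ms4a1 reached at most 2.54 CPM in a CD4 library and was not called.

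Other lists gave few calls. Monocyte and neutrophil genes had a median of -1.59, and of 20 tested Clec7a (-5.16) and Il1b (-4.80) were called higher in CD4 cells and Ly6c2, which activated CD8+ T cells express, higher in CD8 cells (2.43). Of 11 tested dendritic cell genes Batf3 (-6.03), Cd83 (-3.51) and Ccr9 were higher in CD4 cells, and Itgax, an integrin chain that activated CD8+ cells can express, higher in CD8 cells (2.16). In the NK cell list Gzma and Eomes were called higher in CD8 cells, while Tyrobp (-3.75) and Fcer1g (-3.08), adaptors that myeloid cells also use, were higher in CD4 cells. Of the stromal genes only Stab2, a scavenger receptor of sinusoidal endothelium, was called (-4.73). In the edgeR fit of 12 libraries no megakaryocyte, mast cell, basophil or eosinophil gene was called of 13 tested. Of these, 8 had an unadjusted p under 0.05, beside 2131 of all 14354 genes tested. DESeq2 called 7 and limma-voom 3, beside 1552 and 932 of all genes. The edgeR fit of the 6 libraries alone called 3, beside 1233 of 12213.

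**Figure D3:**
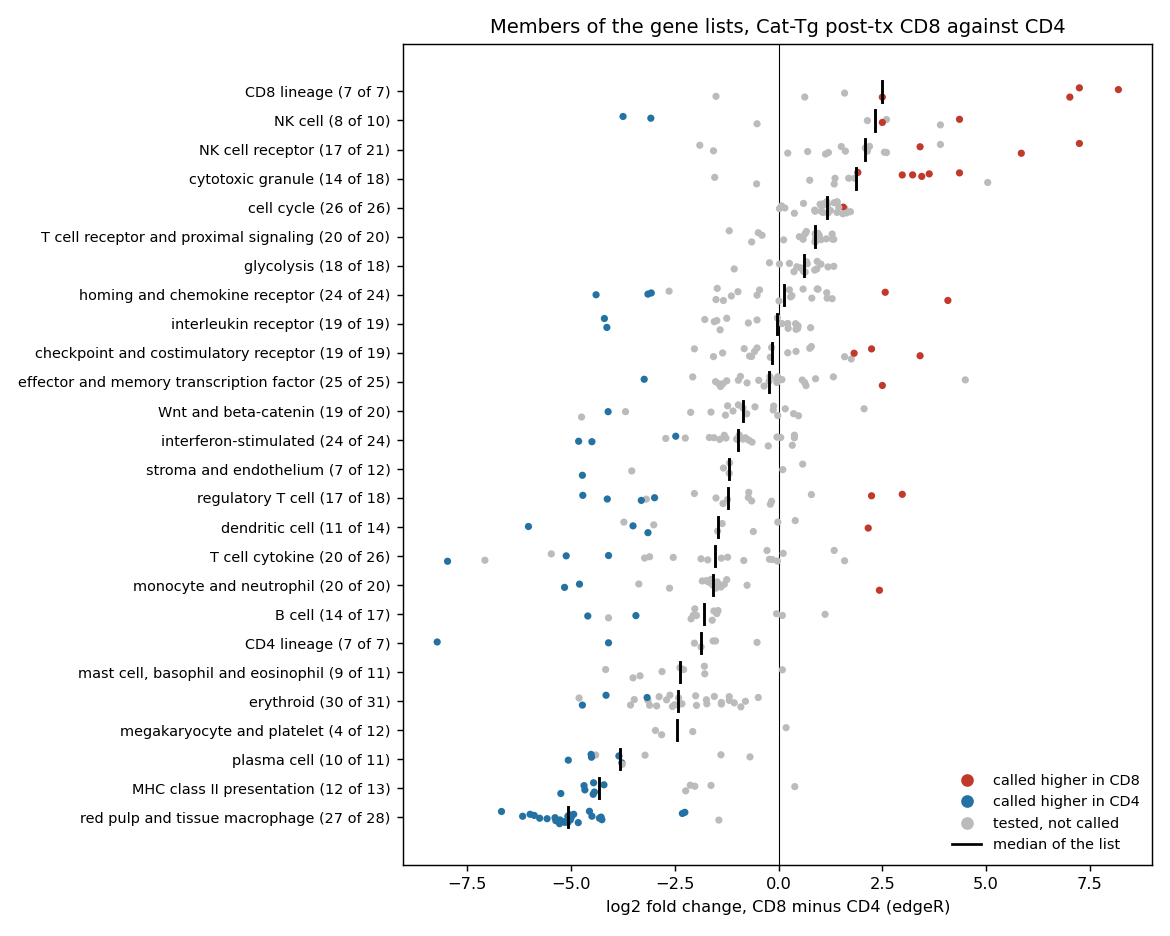
Log2 fold change, CD8 minus CD4 (x), of every tested member of 26 gene lists (rows, with the number tested of the number of members), with the median of each list as a bar. The CD8 lineage, NK cell receptor and cytotoxic granule lists lie to the right, and the MHC class II and macrophage lists lie farthest to the left, at medians of -4.32 and -5.08.

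**Figure D4:**
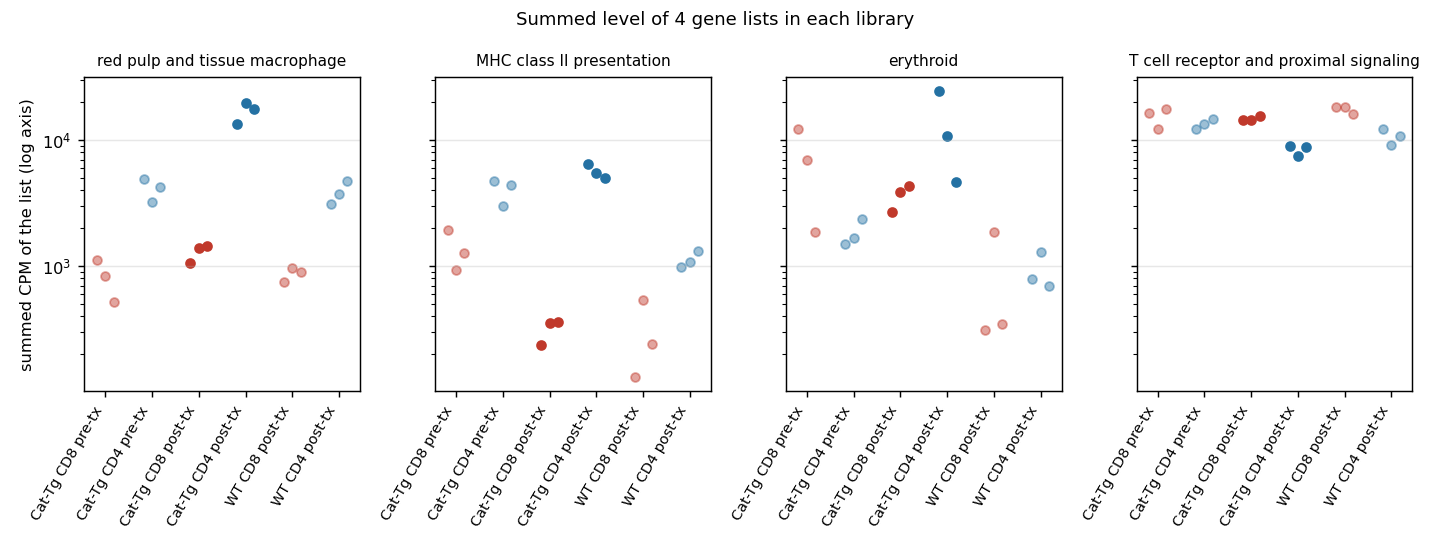
Summed CPM (log axis) of 4 lists in each library of 6 groups, with the Cat-Tg post-tx libraries in full colour and the others paler (CD8 red, CD4 blue). The macrophage sum is highest in the 3 Cat-Tg post-tx CD4 libraries, at 13500 to 19700 CPM, and the erythroid sum spreads from 4670 to 24300 CPM among the same libraries.

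Sorted by these lists, 14 of the 524 genes called higher in CD4 cells were on T cell lists only, 50 on lists of other cells only, 1 (Ccr9) on both, and 459 (87.6%) on neither. On the CD8 side, 14 of 57 were on T cell lists only, 2 (Ly6c2 and Itgax) on lists of other cells only, 2 (Eomes and Gzma) on both, and 39 on neither. The lists thus name a cell for few of the genes called. Of the 524 genes, 53 (10.1%) averaged under 1 CPM in the Cat-Tg CD4 libraries before transplant, as did 6 (10.5%) of the 57. Of the 524 genes, 425 (81.1%) averaged higher there than in the CD8 libraries of the same time. On the CD8 side this held for 13 of 57 (22.8%). The same shares over all genes tested were not counted, so no background stands beside these figures. The part of RNA from macrophages and erythroid cells in the CD4 differences was not tested. Cells derived from the WT marrow carry H-2Kb too. The methods describe sorting of CD4+ and CD8+ T cells after enrichment with magnetic beads, and sorted populations that were typically of high purity. The purity of these 6 libraries was not tested.

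The largest differences among protein-coding genes had the lineage and cytotoxic genes on the CD8 side and genes of other kinds on the CD4 side. The 10 highest log2 fold changes, among genes that averaged at least 10 CPM in the higher group and did not overlap, were those of Cd8a, Crtam, Cd8b1, Smyd1 (5.86), Wdr95 (4.53), Gzma, S1pr5, Gldc (3.82), Gzmk and Prf1. Smyd1 lies beside Cd8b1 in the annotation and overlaps Krcc1, and Wdr95 has an antisense partner, and with a kit that does not mark strand their reads cannot be told apart from those of these partners. The 10 lowest were those of Plau, Cd4, Plpp3 (-7.82), Ifi202b, Hpgd (-7.39), Batf2 (-7.26), Tgm1 (-7.13), Kcnj10 (-7.11), Tlr8 (-7.02) and F11r (-6.86). Plau, the urokinase plasminogen activator, was at 0, 0 and 0.0586 CPM in CD8 cells and 6.62, 20.1 and 14.8 CPM in CD4 cells, at least 152-fold higher than 3 counts per CD8 library allow. Ifi202b was at least 115-fold higher by the same bound. Tlr8, a sensor of RNA in myeloid cells, was at 0.14, 0.0607 and 0 CPM against 1.93, 15.4 and 14.8 CPM. Apart from Cd4 no gene of these 10 was on a T cell list. Of the 20 genes, the calls of Cd8a, Crtam, Cd8b1, Wdr95, Gzmk, Plau, Cd4, Plpp3, Ifi202b and Kcnj10 held with each recipient left out in turn.

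Cell cycle genes leaned toward the CD8 libraries by small amounts that seldom passed the test. The 26 members had positive log2 fold changes (median 1.17), and Birc5, which encodes survivin, was the only call, at 273, 357 and 310 CPM in CD8 cells and 91.0, 108 and 119 CPM in CD4 cells (log2 fold change 1.56, adjusted p = 0.0383, edgeR). Its call was lost without any 1 recipient (adjusted p between 0.187 and 0.407, edgeR), and in the 6 libraries alone 12 were called. The proliferation marker Mki67 was at 199, 65.5 and 65.6 CPM against 49.6, 135 and 106 CPM, so that replicate 1 and the other replicates went in opposite directions. With libraries scaled to equal T cell receptor sums, the list's median was 0.35, none was called, and Mki67 was at -0.81. In the edgeR fit of 12 libraries none of 18 glycolysis genes was called (median 0.62, and -0.20 under that scaling). Of the 18, 3 had an unadjusted p under 0.05, beside 2131 of all 14354 genes tested. DESeq2 and limma-voom called 1 each, beside 1552 and 932 of all genes. The 6 libraries alone gave 2, beside 1233 of 12213. These counts were near the shares over all genes.

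Interferon-stimulated genes had a median of -0.98. Of 24, 3 were called higher in CD4 cells (beside 3.65% of all genes), Iigp1 (-4.82), Ifi44 (-4.50) and Rsad2 (-2.48). Iigp1, an immunity-related GTPase induced by interferon gamma, was at 3.52, 2.82 and 3.87 CPM in CD8 cells and 41.0, 146 and 141 CPM in CD4 cells. Isg15 was at -0.94 and was not called. Rsad2 lost its call without any 1 recipient (adjusted p between 0.13 and 0.235, edgeR), and Iigp1 without replicate 3 (0.0556).

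How the distance between the subsets had changed since before the transplant was tested in the 12 Cat-Tg libraries, as the CD8 minus CD4 difference on day 7 minus that before transplant. Of 16234 genes 158 were called (0.973%), 59 toward CD8 cells (0.363%) and 99 toward CD4 cells (0.61%). The last 2 shares are the background for the counts of list members in this comparison. The count was 243, 61 and 90 without Cat-Tg post-tx replicate 1, 2 or 3, 75 and 99 without pre-tx replicate 1 or 2, and 289 without the block. Levels given for this comparison are CPM scaled over these 12 libraries.

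The inhibitory receptors Pdcd1 and Lag3 were lower in CD8 than in CD4 libraries before transplant and higher on day 7. The day 7 difference alone was called for neither (adjusted p = 0.0587 and 0.158, edgeR), and that before transplant was not tested alone. Pdcd1 before transplant was at 8.63, 7.91 and 5.21 CPM in CD8 cells and 107, 81.1 and 79.0 CPM in CD4 cells, and on day 7 at 753, 809 and 1190 CPM in CD8 cells and 252, 279 and 280 CPM in CD4 cells (log2 difference of the differences 5.37, SE 0.357, adjusted p = 5.76e-05, edgeR). Thus both subsets were higher on day 7 and their order was reversed. Lag3 went from 4.15, 1.69 and 3.58 CPM to 101, 122 and 171 CPM in CD8 cells and from 14.5, 16.3 and 14.5 CPM to 54.4, 30.8 and 24.7 CPM in CD4 cells (4.24, adjusted p = 0.00662). Of 19 checkpoint and costimulatory genes, 7 were called and all 7 toward CD8 cells, not all with a change of order, since Tnfrsf4 was higher in each CD4 library than in each CD8 library at both times. The calls of Pdcd1 and Lag3 held without each post-tx replicate.

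Of 13 cytotoxic genes 4 were called, each toward CD8 cells: Fasl (3.46), Gzmk (3.15), Gzma (2.92) and Prf1 (2.28), and these calls held without each post-tx replicate. Gzma was at 28.9, 18.8 and 13.7 CPM in CD8 cells and 8.58, 5.77 and 5.67 CPM in CD4 cells before transplant, and at 2420, 4250 and 4630 CPM and 78.3, 208 and 249 CPM on day 7. Cx3cr1 went from at most 1.17 CPM to 152, 137 and 122 CPM in CD8 cells. Foxp3 in CD8 cells went from 0.859, 1.04 and 8.72 CPM to 26.2, 25.9 and 52.9 CPM, while in CD4 cells it was at 71.6, 79.3 and 76.6 CPM before and 75.8, 40.5 and 38.7 CPM after (log2 difference 4.66, adjusted p = 0.0284, edgeR), a call that was lost without replicate 2 or 3.

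Of 24 homing receptors, 4 were called toward CD4 cells and 2, Cx3cr1 among them, toward CD8 cells. Ccr7 was at 1570, 942 and 1570 CPM in CD8 cells and 773, 676 and 859 CPM in CD4 cells before transplant and at 8.29, 3.93 and 12.4 CPM and 52.4, 53.5 and 63.4 CPM on day 7 (-3.71, SE 0.412, adjusted p = 0.00137, edgeR). It was therefore lower in both subsets on day 7, and by more in CD8 cells. Ccr9 (-4.58) and Itgae (-4.93) were called in the same direction, and these calls held without each post-tx replicate. Of 13 MHC class II genes 7 were called, all toward CD4 cells (beside 0.61% of all genes), Cd74 with a log2 difference of -2.34. The list's mean share of the deposited counts went from 0.133% to 0.0287% in CD8 cells and from 0.471% to 0.618% in CD4 cells. The shift thus includes lower levels in CD8 cells on day 7. In CD4 cells Cd74 went from 2050, 1220 and 1620 CPM to 3650, 2870 and 2650 CPM. H2-Aa went from 643, 372 and 660 CPM to 247, 382 and 333 CPM there. Among 28 macrophage genes only Siglec1 (-4.50) was called, and its call was lost without replicate 1 or 2. In simulated data this comparison recovered 10.6% of genes with a true log2 difference of 2 and 60.4% of those with 4. The lack of calls therefore does not show that the difference between the subsets was unchanged. Adgre1 had a log2 difference of -0.14, and before transplant it was already at 0.143, 1.45 and 5.45 CPM in CD8 cells and 42.6, 23.2 and 45.1 CPM in CD4 cells. Without replicate 2 the MHC class II calls were lost (adjusted p between 0.0514 and 0.176, edgeR).

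**Figure D5:**
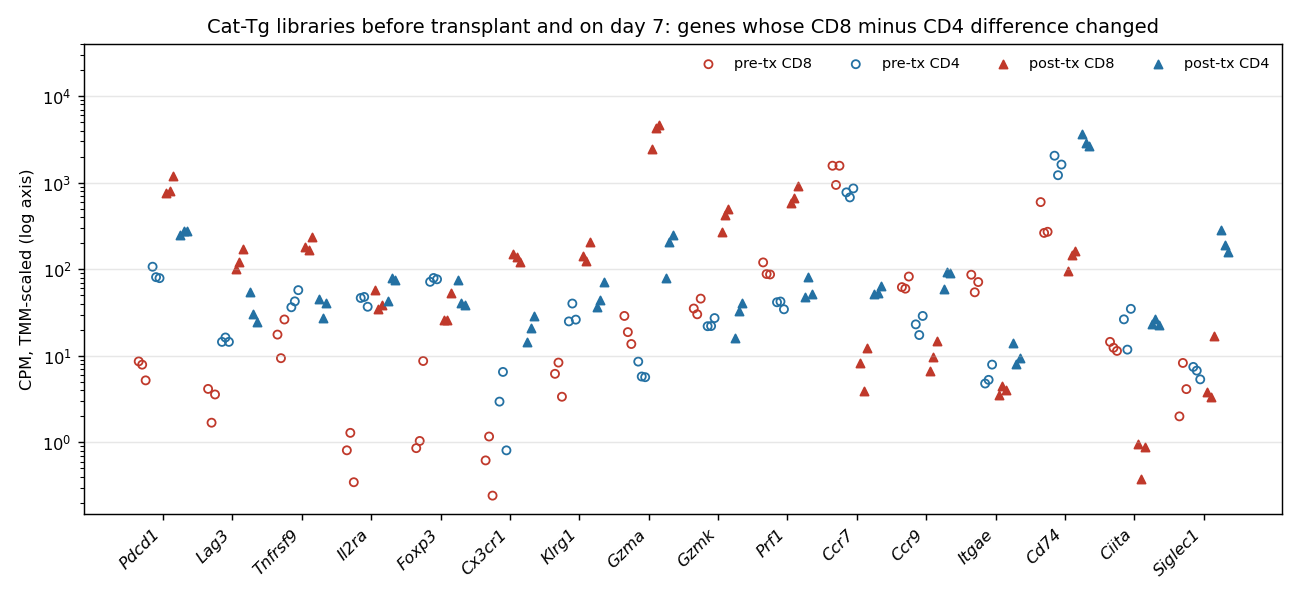
CPM (log axis) of 16 genes called in the comparison with the libraries before transplant, in the 3 pre-tx (open circles) and 3 post-tx (triangles) libraries of each Cat-Tg subset (CD8 red, CD4 blue). For Pdcd1 and Lag3 the CD8 points lie below the CD4 points before transplant and above them on day 7, and for Ccr7 the reverse holds.

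Whether the CD8 to CD4 difference was particular to Cat-Tg cells was tested against WT cells on day 7 in the same fit. The WT libraries carry another label prefix than the Cat-Tg libraries. Per the methods the RNA-seq belonged to an experiment that the authors also reported elsewhere, with the same WT data. Whether the libraries of both genotypes were prepared together is not stated in the sources used here. In edgeR no gene passed out of 14354 (0%), with 1291 genes at an unadjusted p under 0.05, and in limma-voom none passed with 1387 such genes, whereas DESeq2 called 281, of which 210 were toward CD4 cells. In simulated data the edgeR contrast recovered 4.17% of genes with a true log2 difference of 2 and 55.6% of those with 4. The lack of calls in edgeR therefore does not show that the genotypes were alike. Gzma averaged 2820 ± 2940 CPM in WT CD8 cells and 185 ± 68.0 CPM in WT CD4 cells (SD, n = 3). Csf1r averaged 9.30 ± 6.01 CPM in WT CD8 cells and 152 ± 43.5 CPM in WT CD4 cells (SD, n = 3), and the log2 fold change in Cat-Tg cells was 1.11 more negative (log2 difference -1.11, SE 0.664, adjusted p = 0.688, edgeR).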

How the data were processed

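Total RNA of sorted donor cells had been turned into libraries with a SMART-Seq kit, which does not mark strand, and Nextera XT. Per the submitters' notes the authors quantified reads with kallisto 0.46.2, and the notes also list limma and the build mm9. Each deposited table gives estimated counts and TPM, a length-normalised level, per transcript. Estimated counts were summed to genes by GENCODE M21 identifiers (99.66% to 99.67% of counts matched), rounded to whole numbers, scaled by TMM and tested with edgeR 4.0.16 (robust quasi-likelihood F test, Benjamini-Hochberg adjustment, R 4.3.3). TPM served only in alternatives, as another scale for sums and as length-scaled counts in a repeat of the fits.

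The fit held the 12 post-tx libraries of Cat-Tg and WT, with the mouse as a block and a CD8 term for each genotype, over genes above 1 CPM in at least 3 libraries. The difference from WT was the contrast of the CD8 terms, and the difference from pre-tx was tested in the same way in the 12 Cat-Tg libraries. The pairing rests on the methods, by which both subsets were sorted from each mouse. Deviations of same-numbered Cat-Tg post-tx libraries from their group means correlated at -0.11, 0.0592 and -0.177. Those of CD8 and CD4 libraries with different numbers correlated between -0.132 and 0.197. The correlations thus do not show the pairing. With 1 mouse per library, p-values measure the spread between mice of this 1 experiment. WT pre-tx libraries were not used.

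Genes named were the lineage markers, Adgre1 and Ctnnb1, the 10 highest and 10 lowest protein-coding log2 fold changes among called genes without overlap and with at least 10 CPM in the higher group, members of the 26 lists (436 distinct genes), and the 5 highest and lowest called differences from pre-tx under the same rule of level. Gene lists, members and tests were chosen with earlier results of these data known. The fits were tested on simulated data. Alternatives were no block, DESeq2 size factors, scaling to the T cell receptor list, DESeq2 1.42.0, voom in limma 3.58.1, other filters, length-scaled TPM, protein-coding genes only, the 6 libraries alone, and leaving out each replicate. Intervals and limits from counts cover counting error only. Some results are not reported here.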

Additional observations from a re-analysis of the deposited data

Results flagged for a closer look

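The CD8 minus CD4 difference on day 7 differed from that before transplant for 158 genes in Cat-Tg cells, by a test of the difference itself in edgeR. Among protein-coding genes with at least 10 CPM in their highest group, the 5 with the largest shift toward CD8 cells were Plekhf1 (log2 difference 9.28), Kifc1 (7.29), Dhrs13 (6.70), Lat2 (6.69) and D630039A03Rik (6.30). The 5 with the largest shift toward CD4 cells were Plau (-8.20), Amy2a1 (-7.00), Eng (-6.85), Nucb2 (-5.95) and C4b (-5.78). With each post-tx replicate left out in turn, the calls of Plekhf1 and Eng held, and those of Kifc1, Dhrs13, D630039A03Rik and C4b were lost each time. Plau had at most 2 counts and Amy2a1 no count in the post-tx CD8 libraries, and Plekhf1 at most 2 counts in the pre-tx CD8 libraries, so that the sizes and ranks of these 3 depend on the prior count of the fit. Amy2a1 was at 35.4, 35 and 32.2 CPM in CD8 cells and 33.5, 60.3 and 33.7 CPM in CD4 cells before transplant, and at 0.545, 1.06 and 0.249 CPM in CD4 cells on day 7. Dhrs13, Lat2 and Eng overlap other genes in the annotation, and without strand their reads cannot be told apart. C4b and Amy2a1 belong to families of near-identical copies, so their counts are uncertain. Plau and C4b are expressed by macrophages among other cells, and the part of other cells' RNA in these differences was not tested.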

How the results depend on the processing

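In the comparison of CD8 with CD4 cells, the number of genes called was 932 without the replicate block (173 higher in CD8 cells), 1097 with libraries scaled to the T cell receptor list (25 higher in CD8 and 1072 in CD4 cells), 1552 in DESeq2 (255 and 1297), 932 in limma-voom (112 and 820), 1025 without a filter (124 and 901) and 1233 in the 6 libraries alone (303 and 930). Leaving out 1 replicate of either genotype gave 176 to 978 calls, 11 to 262 of them higher in CD8 cells and 165 to 771 higher in CD4 cells. Members called on T cell lists were 31, and 49 under the T cell receptor scaling, 68 in DESeq2, 47 without a filter, 64 in the 6 libraries and 7 to 51 with 1 replicate left out. Those on lists of other cells were 55, and 88, 96 and 86 under that scaling, in DESeq2 and in the 6 libraries, and 28 to 75 with 1 replicate left out. Differences from WT were 0, and 13 without the replicate block, 281 in DESeq2, 47 without a filter and 0 to 2 with 1 replicate left out. Differences from pre-tx were 158, and 289 without the replicate block, 264 under the T cell receptor scaling, 774 in DESeq2, 249 in limma-voom, 512 without a filter and 61 to 243 with 1 replicate left out. The ratio of summed CPM, CD4 over CD8, was 13.1 for macrophage genes (15.9 on count shares, 17.3 on TPM) and 0.569 for T cell receptor genes (0.686 and 0.648). Genes called higher in CD4 cells that averaged under 1 CPM before transplant were 53, and 170 averaged under 5 CPM. The direction changed for Ctnnb1 (0.44 without Cat-Tg replicate 3, with a range from -0.64 over the replicates left out), Runx3 (-0.19 under the T cell receptor scaling), Ifng (0.36 without Cat-Tg replicate 3 and 0.03 without WT replicate 2, lowest -0.32) and Mki67 (-0.81 under that scaling, -0.02 under a minimum of 10 counts per library, 0 on length-scaled TPM and -0.87 without Cat-Tg replicate 1, highest 0.65 without replicate 2), and none of these passed the test to begin with. Of 90 named genes called between CD8 and CD4 cells, 36 held with each Cat-Tg replicate left out in turn and 26 held in none of these fits, which have fewer samples. The shallow Cat-Tg CD4 replicate 1 had the highest detection limit, 0.251 CPM for 3 counts, which bears on genes that were low in CD4 cells. In the CD8 libraries 3 counts were at most 0.091 CPM. The causes of the changes between settings were not tested.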
